A study of Homo sapiens with 23 samples.

Results

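Neg1 (BAK-04-054) and Neg2 (BAK-04-066) are control compounds given beside CDK-TCIP1, and the comparison described here set one against the other. Its members were the 8 of 23 libraries whose treatment label names either compound. Cells of SUDHL5, a human line from a diffuse large B-cell lymphoma, had received 30 nM Neg1 or 30 nM Neg2 for 2 h or for 4 h, with 2 libraries for each compound and time. All cells, controls included, were held in the same final DMSO concentration of 0.1%. The other libraries used below were vehicle alone at 4 h (3 libraries) and 30 nM CDK-TCIP1 at 4 h (3 libraries), and none of the 23 libraries is vehicle at 2 h. Poly(A) RNA was sequenced, so each value is an mRNA level in a whole culture of a single cell line. Whether replicates came from separate cultures is not stated in the labels, so p-values here measure only how far these samples spread, and that spread may be technical.

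CDK-TCIP1 is a bivalent molecule that joins a ligand of BCL6 to a ligand of CDK9. BCL6 is a transcriptional repressor that holds B cells in the germinal centre state by silencing genes of cell cycle arrest, cell death and differentiation, and many lymphomas of this origin depend on it. CDK9 and cyclin T1 form P-TEFb, the kinase that releases paused RNA polymerase II into elongation, and HEXIM1 holds a pool of P-TEFb inactive. A bivalent molecule can bring the kinase to sites that BCL6 occupies, and control compounds with a disabled end are used to ask whether a response needs both ends in the same molecule. Which end each of these compounds disables is not given in the sources used here, and so no structural difference is attached to the values below. This makes 1 pair of compounds, compared at 30 nM at 2 matched times.

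The 8 libraries held 17396484 to 22755241 estimated counts. All 10 B cell markers were present in each of them, MS4A1 at 473 to 576 CPM (counts scaled to the size of the library) and BCL6 at 356 to 407 CPM. Summed B cell markers lay at 5162 to 5323 CPM with Neg1 and 4939 to 5290 CPM with Neg2. Of the T and NK cell markers, CD2, CD5 and CD7 were at 0 in all 8 libraries, and the summed level of all 14 (52.4 to 62.2 CPM) came mostly from LCK, at 48.2 to 57.8 CPM. The myeloid genes S100A8, S100A9, MPO and ELANE were at 0 in all 8, and the myeloid list of 12 summed to 0.834 to 1.78 CPM with Neg1 and 1.28 to 1.90 CPM with Neg2. The 12 epithelial and fibroblast markers summed to 44.8 to 52.7 CPM with Neg1 and 43.9 to 55.1 CPM with Neg2, of which DCN made up 41.0 to 51.3 CPM. In RNA from whole cultures, fewer cells of a type and less RNA per cell cannot be told apart. Of 16 library measures, which included these sums, the total count and the shares of RNA classes, the lowest adjusted p was 0.889 (exact permutation within time, two-sided), and 36 arrangements allow no p below 0.0556, so these measures could not pass the threshold.

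Replicate 1 of Neg2 at 2 h stood apart from the other 7 libraries. Its root mean square distance from their mean was 0.286 in log2 CPM, against 0.167 to 0.211 for each of the others. This covered 10086 genes whose log2 CPM averaged 2 or more across the 23 libraries, called well-measured below. That average includes the CDK-TCIP1 libraries, and some of these genes were near 0 in the 8 compared here. PKNOX2 (0 to 0.858 CPM) and LINC00273 (0.151 to 2.78 CPM) are among them. In the library that stood apart, mitochondrially encoded mRNA made up 5.91% of counts, against 4.79 to 5.34% in the others. Ribosomal protein mRNA made up 5.46%, against 5.87 to 6.38%. The deviation of this library moved with transcript length. Genes with a mean effective length under 500 bases had a median deviation of -0.198 (422 genes), and those over 4000 bases one of 0.0895 (1465 genes). At 4 h the Neg2 libraries leaned the other way, with median differences from Neg1 of 0.0812 and -0.0491 in the same classes. What part length has in the differences below was not tested, and main counts and list medians were recomputed without this library.

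No gene was called different between Neg2 and Neg1. Over both times together, 0 of 17743 genes tested (0%) had an adjusted p under 0.05 (edgeR quasi-likelihood test, Benjamini-Hochberg adjustment, 4 libraries of each compound with time held fixed), and the smallest adjusted p was 0.215. An unadjusted p under 0.05 was found for 683 genes (3.85%), of which 312 had a positive and 371 a negative difference. DESeq2 called 4 genes, with 634 at an unadjusted p under 0.05. By comparison, CDK-TCIP1 at 30 nM changed 6535 of the same genes (36.8%) against vehicle at 4 h in the same fit (edgeR, adjusted p under 0.05).

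A p that misses the threshold does not show that the compounds act alike. The size of difference that each gene allows was therefore read from its 95% interval, for the average of both times. Among the 10086 well-measured genes, the interval lay within -1 and 1 on the log2 scale, that is within 2-fold, for 10009 (99.2%), and within -0.5 and 0.5 for 9337 (92.6%). Among the 5705 genes at 5 or more, it lay within 0.5 for 5673 (99.4%), and the median standard error was 0.0611. Below an average log2 CPM of 2 the data were far less informative. Of those 7657 genes, 1809 (23.6%) had an interval within 1, and 531 had none because all libraries of some group in the fit were at 0. The differences themselves were small in well-measured genes. Their median size was 0.051 in the 10086 genes, with 5th and 95th percentiles of -0.163 and 0.145, and 9 of the 10086 genes differed by 1 or more. Single times allowed larger differences than this average. In the same genes the interval lay within 0.5 for 78.8% at 2 h and 81.4% at 4 h. The median size was 0.087 at 2 h and 0.0636 at 4 h, and 26 and 13 genes differed by 1 or more.

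**Figure D1:**
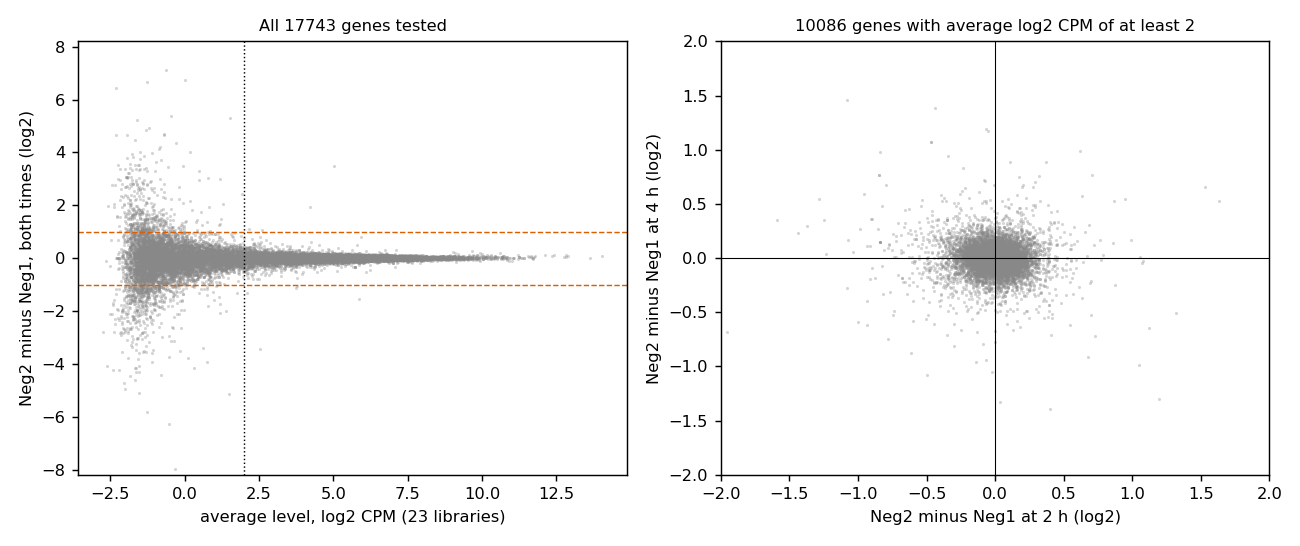
Left, the log2 difference Neg2 minus Neg1 over both times against the average log2 CPM over 23 libraries, 1 point a gene, with dashed lines at -1 and 1 and a dotted line at an average of 2. Right, the difference at 2 h against that at 4 h for the 10086 genes at or above that average, of which 7 lie outside the axes. The spread narrows with level, and the cloud on the right has no tilt along the diagonal.

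Each time on its own gave the same count of calls. At 2 h 0 of 17743 genes were called (smallest adjusted p = 0.79, adjusted over genes and both times together, edgeR), and 1126 had an unadjusted p under 0.05 (6.35%, 519 higher and 607 lower with Neg2). At 4 h 0 were called, and 464 had an unadjusted p under 0.05 (2.62%, 205 higher and 259 lower). DESeq2 called 1 gene at each time, with 1068 and 419 genes at an unadjusted p under 0.05. Without the Neg2 2 h library that stood apart, the 2 h comparison again had 0 calls, with 683 genes at an unadjusted p under 0.05. Whether the difference between the compounds itself changed from 2 h to 4 h was tested directly. That test gave 0 calls (smallest adjusted p = 0.22, edgeR) and 898 genes at an unadjusted p under 0.05 (5.06%), and DESeq2 gave 0 and 826. For scale, 4 h against 2 h with the compounds averaged gave 0 calls and 1394 genes at an unadjusted p under 0.05 (7.86%, edgeR).

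The differences at 2 h and at 4 h, which share no library, did not run together across genes. Over the 10086 genes Pearson's r was -0.0639 and Spearman's rho -0.079, as a description across genes that are not independent replicates, and 4678 genes (46.4%) had the same sign at both times. The standard deviation of the differences was 0.197 at 2 h and 0.154 at 4 h. At both times and in the same direction, the libraries of the compounds did not overlap for 487 of the 10086 genes (4.83%), and for 883 of all 17743 (4.98%).

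Distances between libraries gave the same picture on the scale of whole profiles. A Neg1 and a Neg2 library differed by a median of 0.27 at 2 h (0.217 to 0.328 over 4 pairs) and 0.238 at 4 h (0.219 to 0.242), in root mean square log2 CPM over the 10086 genes. Replicates of a group differed by 0.232 for Neg1 and 0.295 for Neg2 at 2 h, and by 0.265 and 0.226 at 4 h. In the other groups of the series replicates differed by 0.207 to 0.338. Pairs of different compounds therefore lay within the range of all replicate pairs, whose top values (0.336 and 0.338) involved CDK-TCIP1 100 nM replicate 1. The highest pair of compounds at 2 h (0.328) lay above the replicate pairs of the 4 compared groups and held Neg2 replicate 1. The 4 h libraries of Neg1 and of Neg2 lay at medians of 0.268 and 0.248 from vehicle and at 0.538 and 0.526 from CDK-TCIP1 at the same dose and time.

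**Figure D2:**
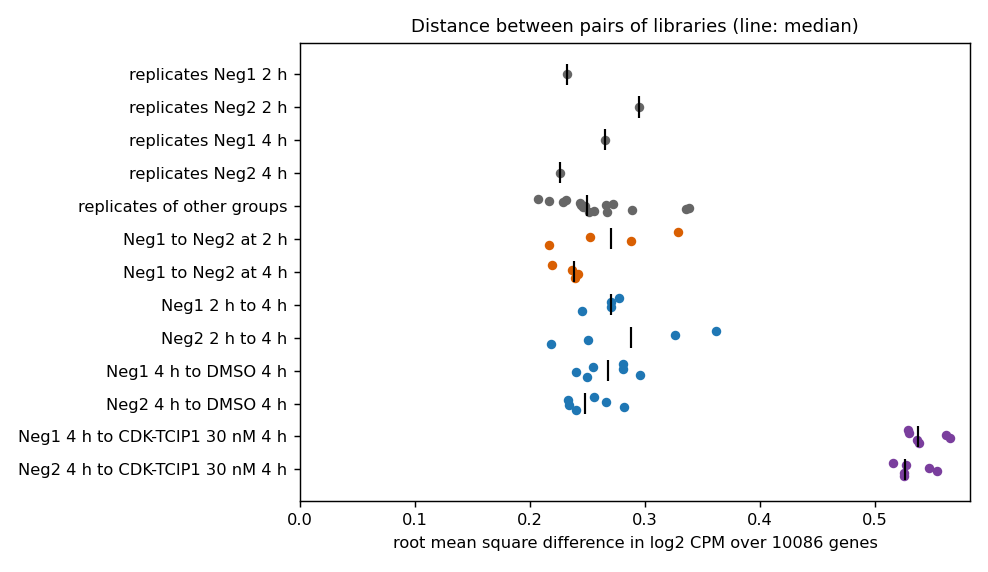
Root mean square difference in log2 CPM for pairs of libraries, 1 point a pair, with the median of each kind as a line. Pairs of Neg1 with Neg2 (0.217 to 0.328) overlap the replicate pairs (0.207 to 0.338), and pairs with CDK-TCIP1 lie above 0.5.

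BCL6, which encodes the repressor that the bivalent molecule binds, was not called different between the compounds. Its level was 407 and 386 CPM with Neg1 and 369 and 367 CPM with Neg2 at 2 h. At 4 h it was 393 and 398 CPM with Neg1 and 362 and 356 CPM with Neg2. All 4 Neg2 libraries were below all 4 Neg1 libraries, and vehicle at 4 h lay at 393 to 410 CPM. The log2 difference was -0.12 ± 0.04 (± SE, 95% interval -0.21 to -0.04, edgeR unadjusted p = 0.00437, adjusted p = 1), which did not pass the test over all genes. No overlap among all 8 libraries was found for 451 of 17743 genes tested (2.54%), so this trait is not particular to BCL6. The difference kept its sign in 18 of 18 alternative settings, from -0.14 to -0.08, but these settings reuse the same libraries. CDK-TCIP1 lowered BCL6 by -0.23 ± 0.05 at 4 h (adjusted p = 0.000269, edgeR), to 335 to 352 CPM. BCL6 (ENSG00000113916) lies on chromosome 3 at 187721377 to 187745727 of GRCh38.

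The kinase bound by the other end and its partners did not separate the compounds. CDK9 was at 45.3 and 47.2 CPM with Neg1 and at 45.0 and 44.4 CPM with Neg2 at 2 h, and at 49.6 and 44.4 CPM against 49.6 and 43.0 CPM at 4 h. Its difference was -0.03 ± 0.08 (95% interval -0.19 to 0.13). The cyclin gene CCNT1 differed by 0.02 ± 0.06 (-0.10 to 0.15), and HEXIM1 by -0.06 ± 0.11 (-0.28 to 0.17). After CDK-TCIP1 these genes stood far outside both sets, with CDK9 at 74.8 to 80.0 CPM, CCNT1 at 194 to 211 CPM and HEXIM1 at 10.7 to 11 CPM. In the list of P-TEFb and elongation factor genes 0 of 30 tested were called, 15 were positive and 15 negative, and the median difference was 0.00826, beside -0.00276 over all genes tested. The member with the highest difference was the elongation factor gene ELL3 (0.12 ± 0.05), at 170 to 175 CPM with Neg1 and 183 to 190 CPM with Neg2. Among 15 transcriptional cyclin-dependent kinases and partners 0 were called, with a median of -0.0226.

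Genes that encode corepressors of BCL6 or that it represses were not called either. Of 16 in the BCL6 and corepressor list 0 were called (median -0.0203), and besides BCL6 only SKP1, a subunit of ubiquitin ligases and of a BCOR complex, had an unadjusted p under 0.05 (0.13 ± 0.05). Of 28 tested BCL6-repressed genes 0 were called, 18 were positive and 10 negative, and the median was 0.027. CASP8, the initiator caspase of death receptors, was highest among its well-measured members. It was at 8 and 12.7 CPM with Neg1 and 19.2 and 13.4 CPM with Neg2 at 2 h, and at 12.4 and 15.1 CPM against 16.6 and 16 CPM at 4 h (0.45 ± 0.19, edgeR unadjusted p = 0.0252, adjusted p = 1). Without the library that stood apart the CASP8 difference was 0.31. CD69, an activation marker, was the lowest of those (-0.20 ± 0.10). The CDK inhibitor gene CDKN1B was at 33.9 and 34 CPM with Neg1 and 31.9 and 32.2 CPM with Neg2 at 2 h, and at 35.2 and 35 CPM against 39.2 and 38.3 CPM at 4 h, so that the order of the compounds turned between the times. Its difference over both was 0.03 ± 0.08 (-0.13 to 0.19), that of the change between times 0.22 ± 0.15 (edgeR adjusted p = 0.973), and CDKN1A differed by 0.01 ± 0.10 (-0.19 to 0.21). PRDM1, the plasma cell regulator, was at 0.00 to 0.741 CPM in the 8 libraries, too low to compare (interval -0.57 to 3.45).

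**Figure D3:**
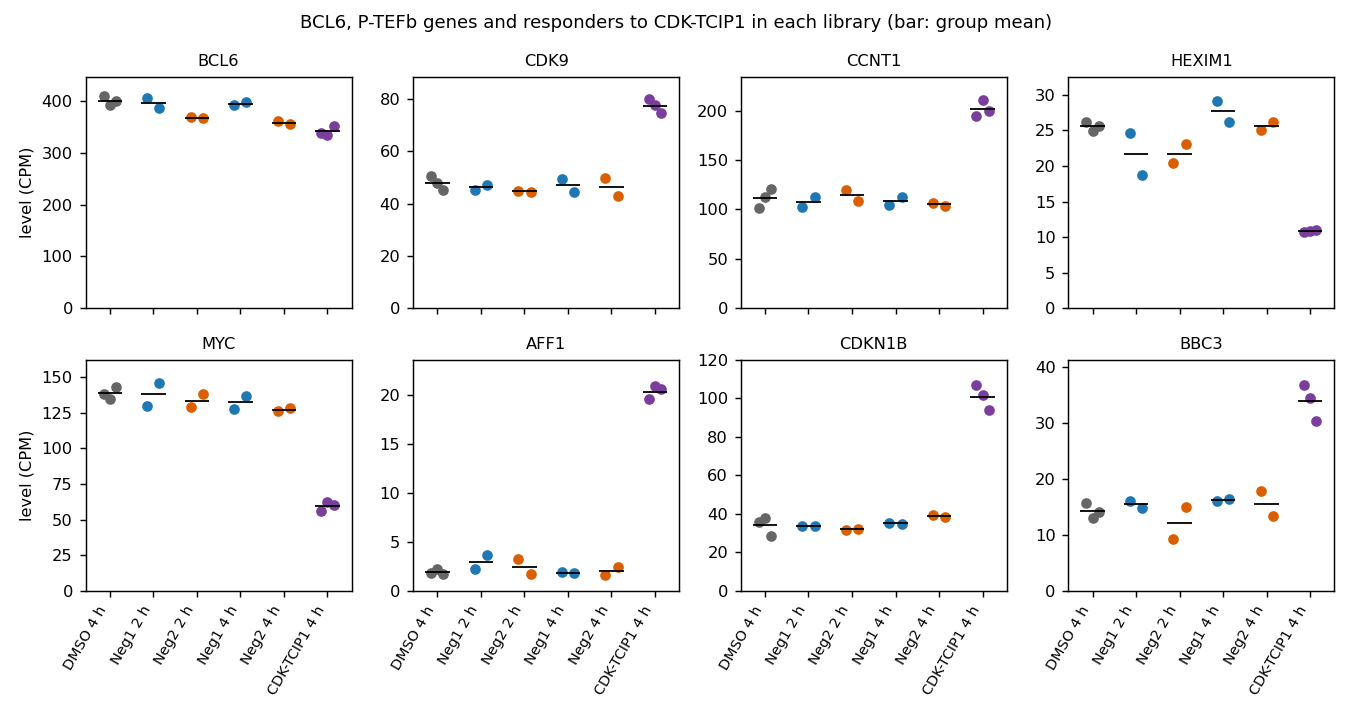
Level in CPM of 8 genes in each library, 1 point a library, with group means as bars and axes from 0. For BCL6 the 4 Neg2 libraries (356 to 369) sit below the 4 Neg1 libraries (386 to 407), while for the other 7 genes the ranges of the compounds over both times overlap and CDK-TCIP1 at 4 h stands apart.

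No apoptosis gene was called, and the width of the intervals differed between genes. MCL1, an anti-apoptotic BCL2 family gene, was at 675 to 694 CPM with Neg1 and 662 to 688 CPM with Neg2 (-0.02 ± 0.05, interval -0.12 to 0.08). BCL2L11, which encodes BIM, differed by -0.01 ± 0.06 (-0.13 to 0.11) and PMAIP1, which encodes NOXA, by 0.10 ± 0.07 (-0.04 to 0.23). BBC3, which encodes PUMA, was at 14.9 to 16.4 CPM with Neg1 and 9.26 to 17.8 CPM with Neg2 (-0.20 ± 0.12, -0.45 to 0.06), and its lowest value was in the library that stood apart, without which the difference was -0.04. BMF differed by 0.08 ± 0.12, FAS by -0.13 ± 0.13 and FOXO3 by 0.03 ± 0.10. BCL2 itself was low in these cells, at 2.46 to 4.17 CPM, and its interval was wide (-0.70 to 0.16). Of 14 pro-apoptotic BCL2 family genes, 11 anti-apoptotic genes and 26 p53 targets 0 were called, with medians of -0.00398, -0.0121 and 0.00821. PLK3, a stress-responsive kinase in the p53 list, had an unadjusted p under 0.05 (-0.39 ± 0.15).

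Among short-lived and immediate early mRNAs, more differences were negative than positive for Neg2 minus Neg1. Of the 33 tested 25 were negative and 8 positive, against 9038 negative and 8689 positive over all genes tested. Their median was -0.051 and 0 were called. The median stayed negative in all 18 alternative settings, from -0.103 to -0.0313, the latter without replicate 1 of Neg2 at 2 h. An unadjusted p under 0.05 was found for 4 of them, all with a negative difference. These were FOS, EGR1 (-0.32 ± 0.13), DUSP2, a phosphatase of MAP kinases (-0.20 ± 0.09), and ZFP36L1, an mRNA decay factor (-0.11 ± 0.05). FOS, a subunit of AP-1, was at 9.92 and 7.47 CPM with Neg1 and 4.58 and 5.26 CPM with Neg2 at 2 h, and at 5.15 and 7.29 CPM against 5.06 and 4.84 CPM at 4 h. The compounds did not overlap at either time, and the Neg1 libraries at 2 h were above vehicle at 4 h (5.40 to 7.02 CPM). The FOS difference was -0.58 ± 0.15 (95% interval -0.88 to -0.27, edgeR unadjusted p = 0.000719, adjusted p = 1). MYC, another short-lived mRNA, was at 128 to 146 CPM with Neg1 and 126 to 138 CPM with Neg2 (-0.05 ± 0.07, -0.20 to 0.10).

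All 13 mitochondrially encoded mRNAs had a positive difference, with a median of 0.103, and 0 were called. The median was 0.193 at 2 h and 0.0136 at 4 h. Without replicate 1 of Neg2 at 2 h, which also had the highest mitochondrial share among the 8 libraries, it was 0.067, and it stayed positive in all 18 alternative settings. MT-ND4L, a subunit of respiratory complex I, had the highest difference (0.29 ± 0.11), with 659 and 613 CPM for Neg1 and 952 and 958 CPM for Neg2 at 2 h, and overlapping libraries at 4 h. Its reading frame overlaps MT-ND4, so the split between these genes is uncertain. Of 49 cytosolic ribosomal protein genes 35 were positive (median 0.0282, with -0.014 at 2 h and 0.0691 at 4 h). The median over both times turned to -0.0235 without replicate 2 of Neg2 at 2 h. Of 28 genes of G2/M and mitosis 24 were positive (median 0.0399, from 0.0213 to 0.0557 over the alternatives), and the mitotic kinesin gene KIF23 was the highest (0.14 ± 0.06). The mitochondrial and ribosomal protein shares of a library are sums over these same genes. What part library composition or transcript length has in the medians was not tested.

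The cell identity lists lay near 0. Of 29 germinal centre genes 0 were called (median -0.00386), and the marker SERPINA9 was at 153 to 171 CPM with Neg1 and 151 to 167 CPM with Neg2 (-0.02 ± 0.06, interval -0.15 to 0.11), against 32 to 42.8 CPM after CDK-TCIP1. Genes of the B cell receptor pathway (22 tested), the plasma cell list (14) and the MYC targets (35) had 0 called and medians of 0.00111, 0.0112 and 5.61e-05. In the MYC target list every one of the 35 intervals lay within 0.5. The NF-kB list had a median of -0.0238, with NFKB2 the lowest of its well-measured members (-0.32 ± 0.24). Of the 35 interferon-stimulated, 26 sterol, 26 unfolded protein and stress, 16 heat shock, 20 hypoxia and glycolysis and 26 G1/S genes 0 were called, with medians between -0.0118 and 0.0267. In the xenobiotic and oxidative list, MT2A, a metallothionein, had the highest difference among well-measured members (0.38 ± 0.13). It was at 36.2 and 27.6 CPM with Neg1 against 48.8 and 47.5 CPM with Neg2 at 2 h, and the libraries overlapped at 4 h.

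**Figure D4:**
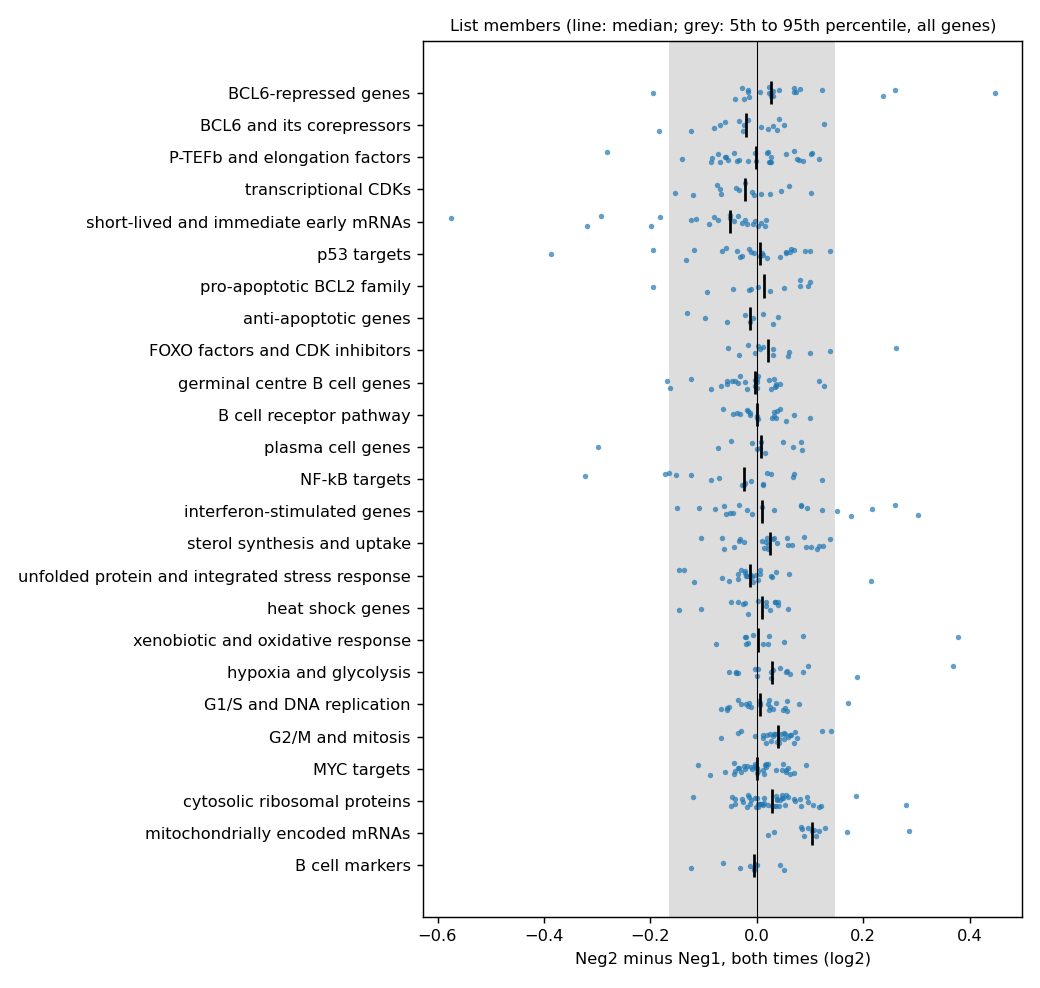
Log2 difference Neg2 minus Neg1 over both times for well-measured members (average log2 CPM of 2 or more), in 25 lists with 9 or more such members, 1 point a gene. Black lines are medians of the points shown, and the grey band runs from the 5th to the 95th percentile (-0.163 to 0.145) of all 10086 genes at that level. Single members lie on both sides of 0 in every list shown except the mitochondrially encoded mRNAs, all 13 of which lie above it.

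The gap between the control compounds was next set beside the size of the CDK-TCIP1 response, gene by gene. The vehicle and CDK-TCIP1 libraries that chose these genes are not among the 8. Of 990 genes that CDK-TCIP1 raised at least 2-fold at 4 h (5.58% of genes tested) and 524 that it lowered (2.95%), 0 were called between Neg2 and Neg1. Their median differences were -0.0422 and -0.00153, against -0.00276 over all genes tested. The whole Neg2 minus Neg1 interval over both times was smaller than the CDK-TCIP1 change for 775 of the 990 raised genes (78.3%) and 490 of the 524 lowered genes (93.5%), and 111 and 20 had no interval. With the wider intervals of single times the share of raised genes was 49.6% at 2 h and 53.8% at 4 h, and that of lowered genes 78.4% and 78.8%. Most raised genes were low in level, and among the well-measured ones the counts over both times were 178 of 180 raised and 243 of 243 lowered genes. All were chosen for a CDK-TCIP1 change of at least 2-fold, which is 1 on the log2 scale. The Neg2 minus Neg1 interval lay within 1 for 66.6% of all genes tested and 99.2% of the well-measured ones. The choice of genes thus largely fixed the counts among well-measured genes, and no conclusion is drawn from them. AFF1, a scaffold of the super elongation complex, was at 1.82 to 3.66 CPM with Neg1, 1.59 to 3.22 CPM with Neg2 and 19.6 to 20.9 CPM with CDK-TCIP1. The compounds differed by -0.07 ± 0.22 (-0.53 to 0.38), beside a CDK-TCIP1 change of 3.40 ± 0.23.

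Other named genes of this set were compared in the same way. APOLD1 was at 3.65 to 6.91 CPM with Neg1 and 4.63 to 8 CPM with Neg2 (0.30 ± 0.20, interval -0.11 to 0.71), against 63.0 to 78.1 CPM with CDK-TCIP1. ADAMTSL4 (-0.19 ± 0.41), PKNOX2 (-0.54 ± 0.54) and ADGRF1 (-0.18 ± 0.37) were under 1.3 CPM in all 8 libraries, so their intervals reached -1.04, -1.64 and -0.96. Among genes that CDK-TCIP1 lowered, HEATR3 was at 53.8 to 60.7 CPM with Neg1 and 57.7 to 66.3 CPM with Neg2 (0.06 ± 0.07), B3GNT6 differed by -0.05 ± 0.11, SCIMP by -0.17 ± 0.16 and FNDC1 by -0.12 ± 0.09. The gene model ENSG00000142539, on chromosome 19 at 50415799 to 50428409, had the widest gap of the named genes that CDK-TCIP1 lowered. It was at 11.3 and 10.7 CPM with Neg1 and 0.252 and 5.30 CPM with Neg2 at 2 h, and at 6.05 and 9.27 CPM against 5.32 and 4.2 CPM at 4 h. Vehicle lay at 3.82 to 9.32 CPM and CDK-TCIP1 at 0 to 0.682 CPM. Its difference was -1.32 ± 0.52 (95% interval -2.39 to -0.25, edgeR unadjusted p = 0.0182, adjusted p = 1), and the lowest of the Neg2 values was in the library that stood apart. None of these genes passed the test, and the libraries of SCIMP and ENSG00000142539 did not overlap at either time. Whether ENSG00000142539 lies over other genes, as the gene models described below do, was not examined.

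The genes that follow had the smallest unadjusted p-values among well-measured protein-coding genes whose compounds did not overlap at either time. These are listed as the nearest approach to a difference and not as changes. UHRF1, which maintains DNA methylation after replication, was at 89.3 and 134 CPM with Neg1 and 47.0 and 74.4 CPM with Neg2 at 2 h. At 4 h it was at 65.9 and 58.5 CPM against 55.7 and 53.8 CPM. Vehicle, measured at 4 h only, lay at 57.3 to 80.8 CPM. Both Neg1 libraries at 2 h were above that range. Replicate 1 of Neg2 at 2 h and both Neg2 libraries at 4 h were below it. At 2 h the replicates of each compound were themselves apart. Its difference was -0.53 ± 0.14 (95% interval -0.82 to -0.23, edgeR unadjusted p = 0.0012, adjusted p = 1), and -0.38 without the library that stood apart. NME3, a nucleoside diphosphate kinase, was at 5.08 and 3.19 CPM against 2.57 and 2.25 CPM at 2 h and at 4.37 and 4.01 CPM against 2.74 and 2.22 CPM at 4 h (-0.77 ± 0.20). TBL3, a ribosome assembly factor, differed by -0.17 ± 0.05.

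Among those with a positive difference, RETREG1, a receptor for autophagy of the endoplasmic reticulum, was at 40.5 to 45.6 CPM with Neg1 and 49.0 to 50.7 CPM with Neg2 (0.20 ± 0.06, interval 0.07 to 0.32). CYSTM1 was at 13.9 to 14.3 CPM with Neg1 and 16.8 to 19 CPM with Neg2 (0.33 ± 0.11), and FBXO5, an inhibitor of the anaphase-promoting complex, differed by 0.17 ± 0.05. For RETREG1 and CYSTM1 all 4 Neg2 libraries were above all 4 Neg1 libraries. Vehicle lay at 43.9 to 46.0 CPM for RETREG1 and 13.8 to 17.3 CPM for CYSTM1. UHRF1 (ENSG00000276043) lies on chromosome 19 at 4903080 to 4962154, and FOS (ENSG00000170345) on chromosome 14 at 75278774 to 75282230, on GRCh38.

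**Figure D5:**
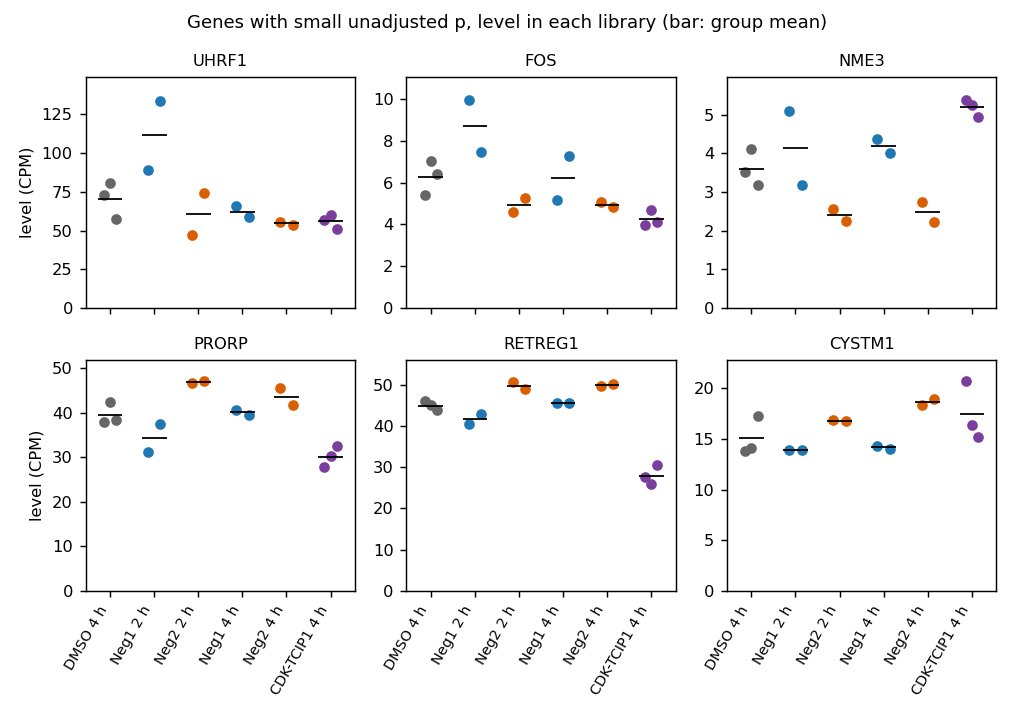
Level in CPM of 6 genes with small unadjusted p-values in each library, 1 point a library, with group means as bars and axes from 0. In each panel the Neg1 and Neg2 libraries do not overlap at 2 h or at 4 h. The log2 difference is larger in size at 2 h for UHRF1, FOS, PRORP and RETREG1, and at 4 h for CYSTM1. For NME3 it is nearly the same at both times.

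The lowest p of all was that of an overlapping gene model. ENSG00000258790, on chromosome 14 at 35122549 to 35317474, spans PRORP, the catalytic subunit of mitochondrial RNase P (35121846 to 35277614), and PSMA6 on the same strand. It was at 16, 14, 13.8 and 16.2 CPM with Neg1 and at 11.5, 8.22, 6.86 and 9.59 CPM with Neg2, with no overlap (-0.74 ± 0.14, edgeR unadjusted p = 1.21e-05, adjusted p = 0.215). DESeq2 called it (adjusted p = 0.00302), and so did edgeR without 2 libraries that stood apart, namely Neg2 2 h replicate 1 and CDK-TCIP1 100 nM replicate 1 (adjusted p = 0.0378). PRORP went the other way (0.29 ± 0.09), from 31.2 to 40.7 CPM with Neg1 to 41.8 to 47.1 CPM with Neg2. Summed, these 2 genes had 47.2 and 51.5 CPM with Neg1 and 58.2 and 55.3 CPM with Neg2 at 2 h, and 54.6 and 55.8 CPM against 52.4 and 51.4 CPM at 4 h, a difference of 0.0574. The sum of all 3 differed by 0.0908. A read that matches several transcripts is divided among them in an estimated count, so these values for each gene alone are uncertain. ENSG00000284461, on chromosome 7 at 66628958 to 66811189, differed by 0.80 ± 0.22 and also overlaps genes of its strand, RABGEF1 and KCTD7 among them. The sum with those differed by 0.0571.

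Single transcripts gave 4 calls of 71209 tested (0.00562%, edgeR, adjusted p under 0.05), with 3227 at an unadjusted p under 0.05 (4.53%). They were transcripts of TRAPPC13, SLC23A1, TAB2 and C5orf22, named because they were the only calls. Each was at 0 in both libraries of a single compound and time and at 0 in none of the 15 libraries outside the comparison. The transcript of TAB2, an adaptor of the kinase TAK1, was at 0 and 0 CPM with Neg1 and 20.4 and 21.8 CPM with Neg2 at 2 h, and at 16.7 and 9.83 CPM against 7.97 and 9.72 CPM at 4 h. That of TRAPPC13, a trafficking subunit, was at 0 and 0 CPM with Neg2 at 4 h and at 4.35 to 8.36 CPM in the other 6. The gene totals differed by 0.12 for TRAPPC13, -0.10 for SLC23A1, 0.11 for TAB2 and 0.08 for C5orf22, each with an adjusted p of 1 (edgeR). No measure of how surely reads were assigned to transcripts was used here, so these calls are less certain than those on gene totals.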

How the data were processed

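For each library the authors deposited the table that kallisto writes, with an estimated count, a TPM value and an effective length for each of 227912 transcripts. The tools named per the submitters' processing notes are FastQC, cutadapt, kallisto and DESeq2. Not given in the sources used here were their versions, the transcript set and any strand setting. The deposited TPM values and effective lengths served only for the length classes and a length-scaled alternative.

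Transcripts were matched to GENCODE 29 on GRCh38 (205964 matched, and 1.16 to 1.28% of counts were left out), which may not be the authors' annotation. Estimated counts were summed for 58592 genes and rounded. All 23 libraries entered 1 edgeR 4.0.16 fit (R 4.3.3, TMM, filterByExpr, quasi-likelihood F test), in which every group had its own coefficient and 14 residual degrees of freedom were left. The contrast averaged Neg2 minus Neg1 at 2 h and at 4 h. P-values were Benjamini-Hochberg adjusted over 17743 genes, and for single times over both times together. Intervals use the fitted standard error. DESeq2 1.42.0 was an alternative, with size factors, filters, subsets of libraries, blocks and left-out replicates. TMM takes the bulk of genes as unchanged, so differences are relative to it.

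Genes named are the 5 protein-coding genes each way with the smallest unadjusted p among well-measured genes without overlap of the compounds at either time. From the 30 gene lists the highest and lowest well-measured members were named, with or without overlap. Marker lists of cells other than B cells were left out of this step. A fixed set around BCL6, P-TEFb and apoptosis and the 5 largest rises and falls with CDK-TCIP1 were also named. Members of a list with an unadjusted p under 0.05 and the called transcripts were named after their values were seen. The rule named 85 genes, and list members beyond those described are covered by the counts and medians alone. The members and lists were chosen with earlier results of these data known. No sequence is printed, since no gene was called.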

Additional observations from a re-analysis of the deposited data

How the results depend on the processing

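Calls between the compounds depended on how the spread was estimated, and they were few except with no filter on low counts. With no filter edgeR called 78 genes over both times, 128 at 2 h, 52 at 4 h and 106 for the change between times. All but 1 of these had been tested in the filtered fit too, and the prior degrees of freedom went from 10.5 to infinite, so that a gene's own spread no longer counted. DESeq2 called 4, 1, 1 and 0 genes. Without the 2 libraries that stood apart, edgeR called 1 gene over both times. Leaving out single libraries gave 0 to 7 genes over both times, 0 to 35 at 2 h, 0 to 1 at 4 h and 0 to 21 for the change. The upper ends of the first, second and last came without Neg2 2 h replicate 2, which leaves the library that stood apart alone in its group and assumed to vary like the other groups. Calls of 1 or 2 genes also came without Neg1 2 h replicate 2 (CFAP298-TCP10L), and without Neg1 4 h replicate 1 or 2 (AGRN and UTP14C among them).

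Same-numbered libraries did not deviate together (r between -0.0715 and 0.0774), so no pairing by number was visible. These correlations cannot show whether same-numbered samples were handled together. With the number as a replicate block in all libraries 0 genes were called. With a replicate block within time in the 8 libraries, 1 gene was called over both times (H3P6) and 2 at 2 h (H3P6 and UHRF1).

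Genes with an interval within 1 numbered 11292 to 11426 over fits without 1 library (11818 with all), and within 0.5 they numbered 8951 to 9109 (9423 with all). Counts scaled by transcript length gave fewer, 10978 and 7960. The median difference of genes raised by CDK-TCIP1 ran from -0.1011 to 0.0102 and that of lowered genes from -0.008835 to 0.01481 over these fits. Transcript calls ran from 6 to 125. Over all genes tested, distances between the compounds were 0.71 at 2 h and 0.645 at 4 h beside 0.674 for replicates, and with a prior count of 0.5 the 4 h value was 0.262. Of 1527 alternative values for 85 named genes 1453 moved by less than the spread, 65 moved more and 9 passed the threshold. The spread here was each gene's own standard error in the main fit. A poorly measured gene could thus shift far and still count among the 1453. Below an average log2 CPM of 2, depth limits what can be seen.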

Other observations

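Several genes that were called only in some settings were members of pairs with near-identical or overlapping sequence, and their values are given here with the sum of the pair. These pairs were chosen after their values were seen. H3-3A, a replication-independent histone gene, was at 218, 208, 235 and 234 CPM in the Neg1 libraries and at 135, 206, 235 and 210 CPM in the Neg2 libraries, with the low value in Neg2 2 h replicate 1. Its processed pseudogene H3P6 was at 102 CPM in that library and at 0 to 37.7 CPM in the other 7. The sum of the pair was 237 CPM there and 217 to 243 CPM in the others. EIF3C, a translation initiation factor subunit, was at 308 CPM in the same library and at 550 to 610 CPM in the other 7, while its copy EIF3CL was at 298 CPM there and at 5.15 to 52.0 CPM in the others. Their sum was 606 CPM, within the 598 to 644 CPM of the others. What divides the reads within such pairs was not tested.

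LINC00273, called by DESeq2 over both times and at 2 h, was at 2.07 and 2.78 CPM with Neg1 and 0.151 and 0.663 CPM with Neg2 at 2 h, and at 0.728 and 1.72 CPM against 0.643 and 1.04 CPM at 4 h. In the other 15 libraries of the series it ranged from 1.58 to 281 CPM.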
